A study of Homo sapiens with 8 samples.

Results

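The 9 genes described here encode the death ligand TRAIL and a set of proteins through which death receptors signal: TNFSF10, TNFRSF10A, TNFRSF10B, FAS, TNFRSF1A, TNFRSF1B, FADD, CFLAR and CASP8. They were chosen by name around TNFSF10, whose high signal with 1 CDK2 hairpin was already known, and each was read from the probe set of exactly 1 gene with the highest mean over the 8 arrays. All 9 were measured, among 18132 genes in all, and all 9 were among the 12845 genes tested, which had a mean above 5.83 log2 (the 40th percentile of all probe sets). The samples were NB4 cells, a human acute promyelocytic leukaemia cell line, infected at a multiplicity of 10 with lentivirus carrying shCDK2 #10, shCDK2 #3, shCDK2 #1 or a scramble control hairpin. RNA was collected after 2 days, given as an early stage of differentiation, or after 5 days, given as a late one, so that each hairpin and the scramble control had 1 array per day. The series asks what depletion of CDK2, a cyclin-dependent kinase, does to a myeloid line as it differentiates. All the groups carry a lentiviral hairpin, and no uninfected cells were among the 8 arrays. Signals are the authors' values, taken to be log2 from their range, so a difference of 1 is a doubling, and levels of different genes are not compared.

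TRAIL, the product of TNFSF10, is a membrane ligand that binds the receptors encoded by TNFRSF10A and TNFRSF10B. Bound receptors, and likewise FAS, gather the adaptor FADD, which recruits the protease caspase-8 (CASP8), and CFLAR encodes c-FLIP, which can hold caspase-8 in check. TNFRSF1A carries a death domain too, while TNFRSF1B, the other TNF receptor, has none. In myeloid cells TNFSF10 is known as an interferon-responsive gene, and in acute promyelocytic leukaemia cells its induction by retinoic acid has been described.

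CDK2, the target of the hairpins, had log2 signals of 7.54 at day 2 and 8.09 at day 5 in shCDK2 #10, 7.78 and 7.89 in shCDK2 #1, and 9.10 and 8.19 in scramble. With hairpin #3 it had 9.03 in the day 2 array labelled shCDK2 #3, which is 95% of scramble, and 7.72 at day 5, which is 72.3%. On the probe set used, that array therefore goes against its label, and the main fitted values of #3 are also given without it. At day 2 the next brightest CDK2 probe set had 8.88 log2 there, against 9.19 in scramble, 7.28 in #10 and 7.36 in #1. The dimmest had 7.625 there, against 7.51 in scramble, 7.03 in #10 and 7.18 in #1. On the probe set used, CDK2 at day 5 stood at 92.9% of scramble in #10 and at 81.1% in #1. On that probe set the scramble array of day 5 was itself low for a control. In #10 at day 5 the next brightest probe set had 7.815, against 7.851 in scramble, and the dimmest had 7.303, against 7.526. Calls that depend on the day 5 array of #10 or of scramble are also given without it. The promyelocyte marker MPO was high in all 8 arrays, between 13.37 and 14.40 log2, whereas ELANE lay between 5.83 and 6.35, near the filter. The log2 of the summed signal of the 6 promyelocyte markers measured was 13.84 to 14.25 in #10, 14.56 to 14.66 in #3, 14.35 to 14.44 in #1 and 14.40 to 14.65 in scramble. For the 5 lymphoid markers measured it was 11.79 to 12.01 in #10, 10.72 to 11.12 in #3, 10.66 to 10.77 in #1 and 10.37 to 10.80 in scramble. Of the 4 lymphoid markers tested 2 stood above 0 in #10 and 1 passed, where 2.01% of all genes did. This was CD3D, higher by 2.25 log2 (SE 0.20, limma adjusted p = 0.0133). CD3D did not pass without the scramble array of day 5. NKG7 had 10.45 and 10.52 log2 in #10, against 9.31 and 9.99 in scramble. The other 2 tested, CD3E and CD79A, stood below 0 in #10. CD3E had 6.137 and 6.005 in #10, against 5.86 and 6.375 in scramble. CD79A had 7.325 and 7.245 in #10, against 7.29 and 7.671 in scramble. The B cell gene MS4A1 stayed at 4.03 to 4.67 in all arrays. The sums of the 6 fibroblast and epithelial markers were 8.34 to 8.82 in #10 and 8.52 to 8.63 in scramble. The part of these markers in the results below was not tested.

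TNFSF10 was the most variable of the 9 genes. Its log2 signal was 10.00 at day 2 and 11.97 at day 5 in shCDK2 #10, 7.25 in the day 2 array labelled shCDK2 #3 and 10.33 in #3 at day 5, 7.29 and 6.63 in #1, and 6.54 and 7.34 in scramble. Thus 3 arrays, both of #10 and the day 5 array of #3, lay at or above 10.00, and the other 5 lay between 6.54 and 7.34. Against scramble of the same day, #10 was 11.0-fold higher at day 2 and 24.8-fold at day 5. The day 2 array labelled shCDK2 #3 was 1.63-fold higher than scramble, and #3 at day 5 was 7.99-fold higher. Hairpin #1 stood at 1.68 times scramble at day 2 and 0.612 times at day 5, so its sign differed between the days. As each array is an average over a culture, more cells with the transcript and more transcript per cell cannot be told apart.

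The sequence just before the annotated start of TNFSF10 is shown because core letters of an interferon-stimulated response element, searched as GAAANNGAA on both strands, occur in it. It spans chr3:172523431-172523680 on the minus strand of GRCh38.p14, from RefSeq, and is written in the direction of transcription and in lower case with the matches in capitals.
TNFSF10, bases 250 to 1 before the start: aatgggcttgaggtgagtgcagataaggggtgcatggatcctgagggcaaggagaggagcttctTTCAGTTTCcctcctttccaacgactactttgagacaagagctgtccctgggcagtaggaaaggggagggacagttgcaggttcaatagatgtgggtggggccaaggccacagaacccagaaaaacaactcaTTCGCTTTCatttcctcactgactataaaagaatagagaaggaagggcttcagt
The matches lie 186 to 178 and 54 to 46 bases before the start, both on the opposite strand. Windows from 250 bases before to 50 after a start held these letters in 8.11% of 35116 cases, and in 4 of the 14 windows of the 7 members that had one (TNFSF10, TNFRSF1B, CFLAR and CASP8). No window of FAS, TNFRSF1A or FADD held them, and TNFRSF10A and TNFRSF10B had no window to search. With a further A required next to the second GAA, 3.57% of all windows matched, CFLAR and the TNFSF10 match nearer the start no longer did, and 3 members were left. A match of so few letters describes the sequence and is not a measured binding site.

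All 3 probe sets of TNFSF10 placed #10 above #3, and #3 above #1 and scramble, in the mean of both days. At day 2 alone, #3 lay below #1 on all 3 probe sets. On the second, the log2 signal was 9.78 and 11.64 in #10, 6.47 (day 2 array labelled shCDK2 #3) and 10.02 in #3, 6.96 and 6.10 in #1, and 6.03 and 6.88 in scramble. On the third, it was 8.53 and 10.21 in #10, 6.13 and 9.06 in #3, 6.16 and 5.70 in #1, and 5.92 and 6.20 in scramble. At day 5, #10 exceeded scramble by 4.01 to 4.76 log2 over the 3 probe sets, #3 by 2.86 to 3.14, and #1 differed by -0.78 to -0.50. These probe sets read the same 8 arrays and are no independent support.

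**Figure D1:**
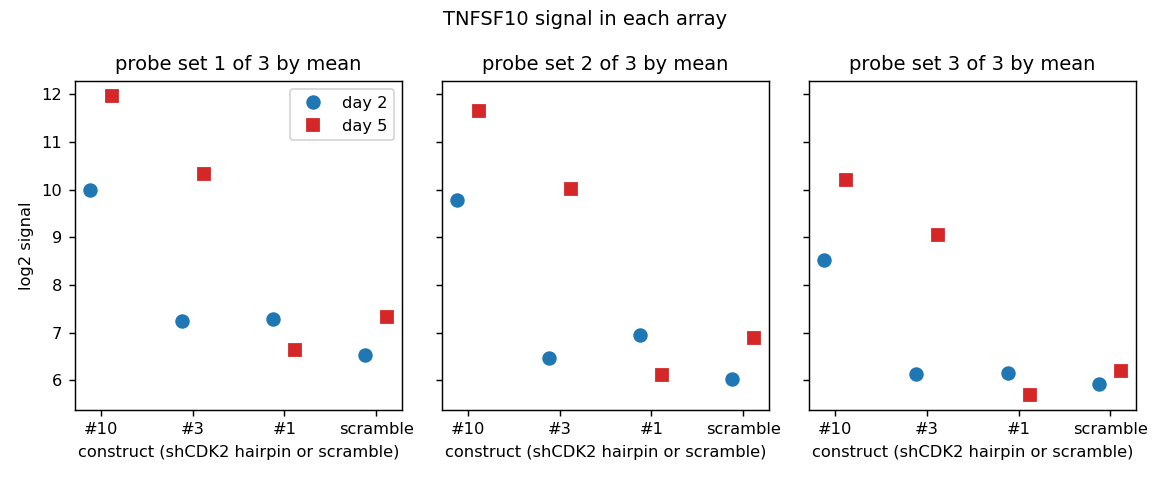
Log2 signal of TNFSF10 in each of the 8 arrays, with 1 panel per probe set, ordered by mean signal, constructs on the horizontal axis and days by colour and shape; there are no error bars because each point is 1 array. In every panel both #10 arrays and the day 5 array of #3 stand above the other 5 arrays.

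The 2 receptors that carry the TRAIL death signal did not follow TNFSF10 alike. TNFRSF10A, encoding death receptor 4, stayed within 0.44 log2 over the 8 arrays: 6.84 and 6.75 in #10, 6.57 (day 2 array labelled shCDK2 #3) and 7.01 in #3, 6.72 and 6.65 in #1, and 6.87 and 6.63 in scramble. TNFRSF10B, encoding death receptor 5, had 11.11 and 10.94 in #10, 9.26 and 10.75 in #3, 9.78 and 9.91 in #1, and 8.83 and 9.61 in scramble. Its 3 highest arrays were the same 3 as those of TNFSF10, and every hairpin array exceeded the scramble array of its day. The excess was 4.86-fold at day 2 and 2.53-fold at day 5 in #10, and 2.21-fold at day 5 in #3.

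The TNFRSF10B result rests on 1 of its 3 probe sets. Over both days #10 exceeded scramble by 1.81 log2 (SE 0.36) on the probe set used, by 0.07 (SE 0.18) on the second and by 0.54 (SE 0.20) on the third. With the mean of the 3 probe sets the change was 0.81 (limma adjusted p = 0.0791). The probe set used is of a kind that may share probes with other sequences, and which transcripts each one reads was not tested.

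FAS, the receptor for FAS ligand, was dim. It had 6.42 and 6.29 log2 in #10, 5.69 (day 2 array labelled shCDK2 #3) and 5.81 in #3, 5.85 and 5.67 in #1, and 5.51 and 5.50 in scramble. On this probe set the #10 arrays were the highest of the 8, by 0.91 and 0.79 log2 over scramble of the same day, and every hairpin array lay above both scramble arrays. With a mean of 5.84, against a filter of 5.83, FAS was the member closest to being left out, and it passed through its #10 arrays, since 5 of the other 6 lay below the filter. Its calls in #10 are therefore no support. A second probe set, itself under the filter, gave a change of 1.07 in #10 (SE 0.305) and 0.74 in #3 (SE 0.305). At day 5 it had 5.875 log2 in #3, above the 5.504 in #10 and the 4.623 in scramble.

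On the probe sets used, the genes of the TNF receptors varied little. TNFRSF1A had 10.94 and 10.75 in #10, 10.53 (day 2 array labelled shCDK2 #3) and 10.84 in #3, 10.75 and 10.84 in #1, and 10.67 and 10.86 in scramble. TNFRSF1B had 7.47 and 8.05 in #10, 7.77 and 7.50 in #3, 7.86 and 7.99 in #1, and 7.54 and 7.94 in scramble. For both genes the hairpin arrays overlapped the scramble arrays. On these probe sets, the farthest from scramble of the same day was TNFRSF1B in #3 at day 5 (-0.43 log2), followed by TNFRSF1B in #1 at day 2 (0.32). The second TNFRSF1B probe set stood 0.72 log2 above scramble in #10 at day 5, and the third 0.04. Over both days the TNFRSF1B change in #10 was 0.44 (SE 0.20) on the second and -0.13 (SE 0.175) on the third.

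**Figure D2:**
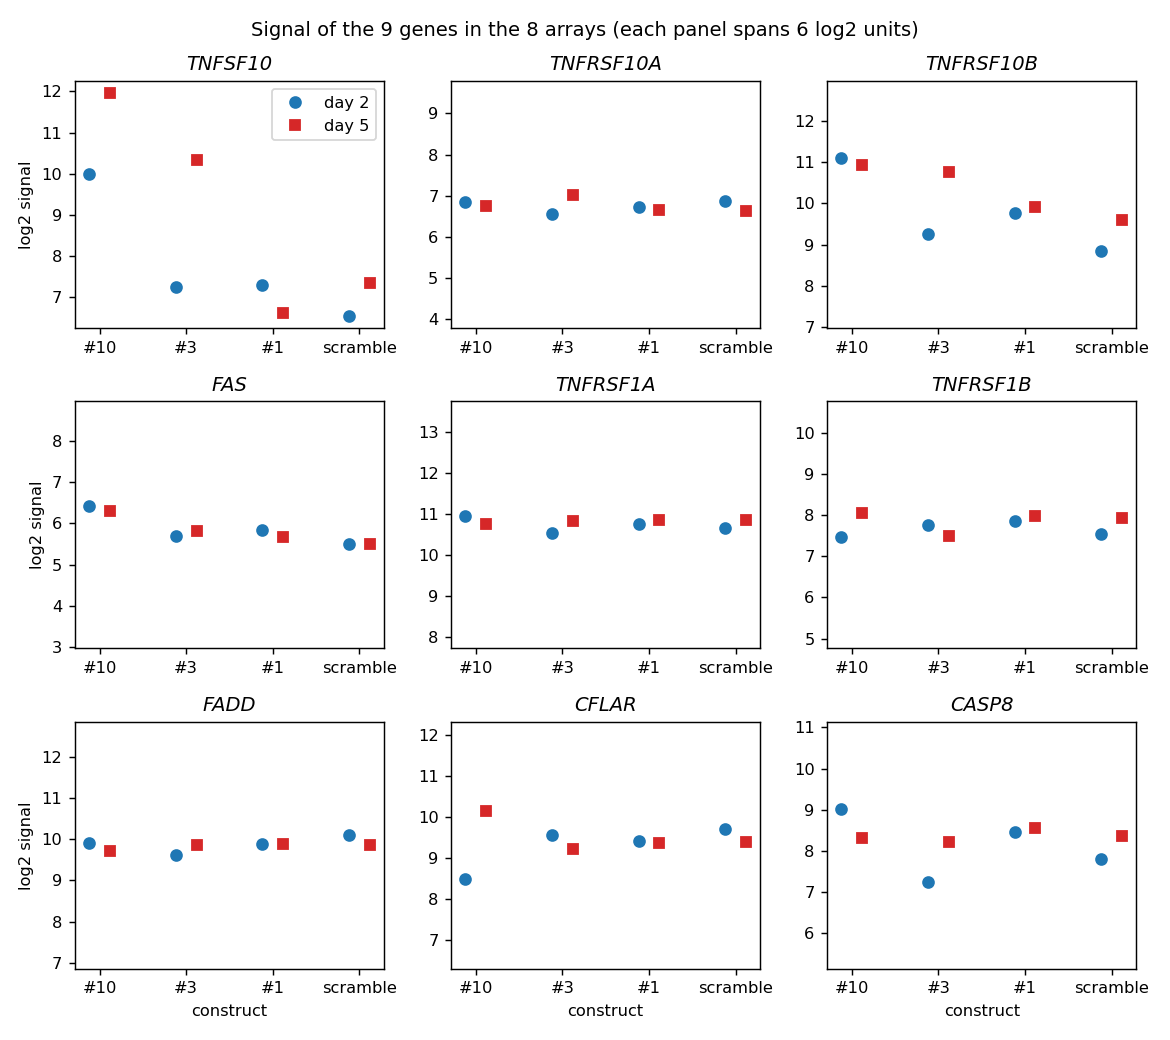
Log2 signal of the 9 genes in the 8 arrays, 1 panel per gene, each panel spanning 6 log2 units so that distances compare between panels; constructs run along the horizontal axis and days differ by colour and shape. TNFSF10 spans 5.42 log2, while TNFRSF10A spans 0.44 log2.

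Among the genes that act inside the cell, the adaptor gene FADD had 9.91 and 9.71 log2 in #10, 9.61 (day 2 array labelled shCDK2 #3) and 9.86 in #3, 9.87 and 9.89 in #1, and 10.09 and 9.87 in scramble. All hairpin arrays of day 2 lay under scramble of that day, by up to 0.48 log2, and the day 5 arrays lay within 0.16 of it. CASP8, the initiator caspase, had 9.03 and 8.32 in #10, 7.24 and 8.21 in #3, 8.46 and 8.56 in #1, and 7.81 and 8.35 in scramble. In #10 CASP8 exceeded scramble by 1.21 log2 at day 2 and differed by -0.03 at day 5. All 4 CASP8 probe sets above the filter were higher than scramble in #10 at day 2, by 0.25 to 1.21 log2. At day 5, 3 of these 4 were higher than scramble in #10, over a range of -0.03 to 0.35 log2, the exception being the probe set used.

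CFLAR, which encodes the caspase-8 regulator c-FLIP, differed in sign between the days of #10. It had 8.48 and 10.13 in #10, 9.57 (day 2 array labelled shCDK2 #3) and 9.22 in #3, 9.41 and 9.36 in #1, and 9.69 and 9.40 in scramble. The #10 arrays were thus both the lowest and the highest of the 8, at -1.21 log2 from scramble at day 2 and 0.73 at day 5. The day 5 direction was shared by all 8 CFLAR probe sets above the filter, with differences of 0.35 to 1.22 log2. At day 2 the 3 brightest probe sets were lower than scramble and the next 5 were higher, over a range of -1.24 to 0.63 log2. CFLAR has several transcripts, and whether the probe sets read different ones was not tested.

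**Figure D3:**
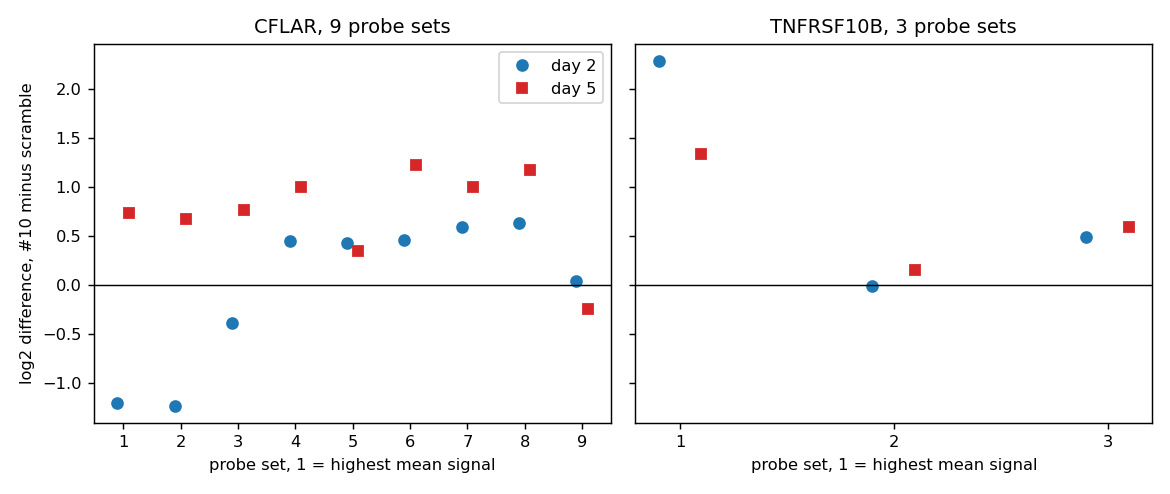
Log2 difference between shCDK2 #10 and the scramble array of the same day for each CFLAR and TNFRSF10B probe set, numbered from the highest mean signal, with days by colour and shape; each point is 1 pair of arrays. The 3 brightest CFLAR probe sets lie below 0 at day 2, all 8 above the filter lie above 0 at day 5, and among the TNFRSF10B probe sets the brightest lies highest on both days.

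Each hairpin was then set against scramble over both days, with construct and day as terms of a limma fit across all 12845 genes. In #10, TNFSF10 was higher by 4.04 log2 (SE 0.74, 95% interval 2.33 to 5.76, adjusted p = 0.0459), a value known when the genes were chosen and given as a description. Of the 9 genes 1 thus passed the threshold of 0.05, where 2.01% of all genes did. TNFRSF10B stood at 1.81 (interval 0.95 to 2.67, adjusted p = 0.0564) and did not pass. FAS stood at 0.85 (interval 0.44 to 1.26), a description only, since its #10 arrays had brought it into the test. The remaining 6 lay between -0.24 for CFLAR (interval -1.30 to 0.82) and 0.59 for CASP8 (interval -0.25 to 1.43, adjusted p = 0.431). TNFRSF10A stood at 0.05 with an interval of -0.45 to 0.54, TNFRSF1A at 0.08, TNFRSF1B at 0.02 and FADD at -0.17. The median over the 9 genes was 0.08 log2, and that of all genes was -0.09.

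The count of 1 in #10 depended on single arrays. It was 3 without hairpin #3 or without the day 2 array labelled shCDK2 #3, where 7.47% of all genes passed. Those 3 were TNFSF10 (adjusted p = 0.0230), TNFRSF10B (0.0198) and FAS, which carries the limit above. Without hairpin #1 it was 2, TNFSF10 and TNFRSF10B (adjusted p = 0.0328), where 2.76% of all genes passed. Without the day 5 array of #10 it was 1 again, but TNFRSF10B (2.29, adjusted p = 0.0425) and not TNFSF10 (3.60, adjusted p = 0.0728), where 1.42% of all genes passed. In that fit, CFLAR stood at -1.18 (adjusted p = 0.0767) and CASP8 at 1.21 (adjusted p = 0.0970), resting on the day 2 array of #10. Without the scramble array of day 5 the count was 0, with TNFSF10 at 3.71 (adjusted p = 0.229), and no gene of the 12845 passed.

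In #3 none of the 9 genes passed, where 0.0311% of all genes did. TNFSF10 stood at 1.85 log2 (SE 0.74, adjusted p = 0.495), TNFRSF10B at 0.79 (adjusted p = 0.555), FAS at 0.24 and CASP8 at -0.36. Without the day 2 array labelled shCDK2 #3, TNFSF10 was 3.05, TNFRSF10B was 1.41, FAS was 0.35 and CASP8 was 0.13. TNFRSF1B was -0.42, TNFRSF10A was 0.33 and CFLAR was -0.54. In that fit #3 keeps only its day 5 array, and a day term from the other constructs enters its values. Against scramble of day 5 alone, that array stood at -0.15 for CASP8 and -0.18 for CFLAR. In #1 none of the 9 passed, and 0% of all genes did. TNFSF10 stood at 0.02 there, with an interval of -1.70 to 1.74, TNFRSF10B at 0.62 (interval -0.24 to 1.48), CASP8 at 0.43 and FAS at 0.25 (adjusted p = 1.00 each). These 3 comparisons share the scramble arrays. No label says whether the arrays stem from separate cultures, so the p-values cover the spread among these 8 arrays alone, and a lone scramble array is assumed to vary like the hairpin arrays.

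**Figure D4:**
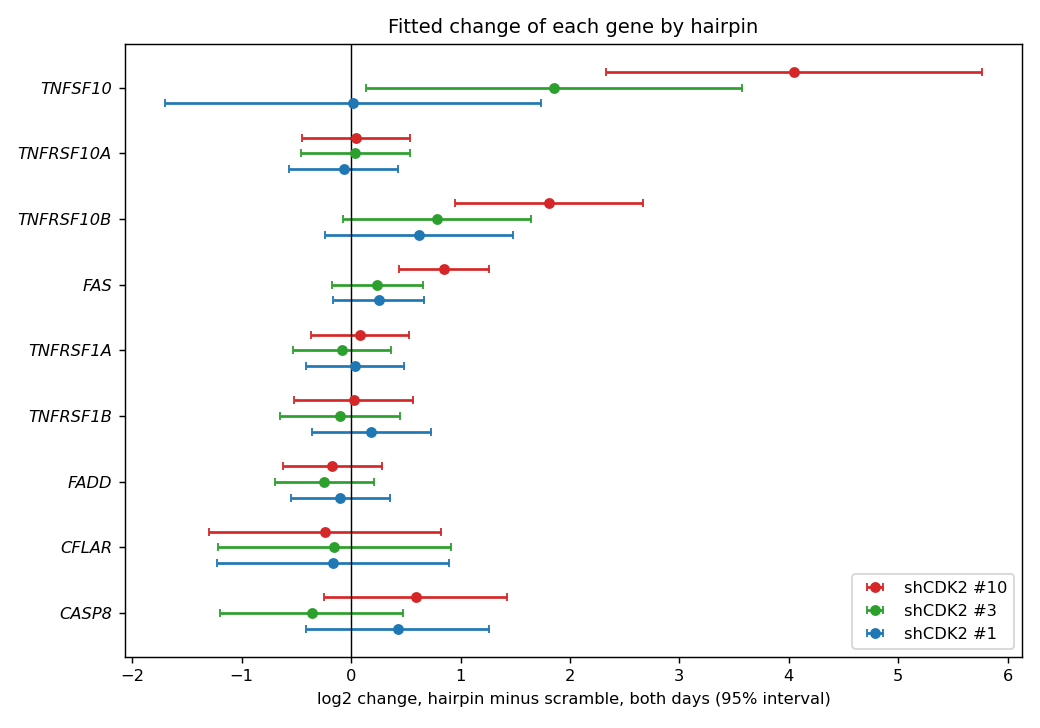
Fitted log2 change of each gene, hairpin minus scramble over both days, with bars for the 95% interval from limma, shown for shCDK2 #10, #3 and #1 from top to bottom within each gene. TNFSF10, TNFRSF10B and FAS in #10 have intervals above 0, and the intervals of all 9 genes in #1 include 0. The FAS interval in #10 is a description only, since its #10 arrays had brought it into the test.

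Where both days of each hairpin are in the fit, differences between hairpins take no level from the scramble arrays, though the spread in their test does. Without the day 2 array labelled shCDK2 #3, the day term, in part from scramble, enters the differences of #3. Between #10 and #1, TNFSF10 differed by 4.02 log2 (interval 2.30 to 5.74, adjusted p = 0.0761), TNFRSF10B by 1.19 (interval 0.33 to 2.05, adjusted p = 0.188) and FAS by 0.60 (interval 0.19 to 1.01). The FAS values of #10 against either hairpin are a description only, since its #10 arrays had brought it into the test. None of the 9 passed, where 0.327% of all genes did. Without hairpin #3, or without its day 2 array, TNFSF10 passed (adjusted p = 0.0291), as did 4.76% of all genes, and without the scramble array of day 5 its adjusted p was 0.186. Between #10 and #3, TNFSF10 differed by 2.19 (adjusted p = 0.799), TNFRSF10B by 1.02 (adjusted p = 0.809), CASP8 by 0.95 (adjusted p = 0.815) and FAS by 0.61. These 4 had an unadjusted p under 0.05 in limma, FAS with the limit just given, as did 740 of all genes. None of the 9 passed, and 0% of all genes did. Without the day 2 array labelled shCDK2 #3 the differences were 1.00 for TNFSF10, 0.40 for TNFRSF10B, 0.46 for CASP8 and 0.50 for FAS. Between #3 and #1, TNFSF10 differed by 1.83 (adjusted p = 0.402) and CASP8 by -0.79 (adjusted p = 0.434), none of the 9 passed and 0% of all genes did. Without that array they were 3.03 (adjusted p = 0.0676) and -0.29, again none of the 9 passed, and 3.62% of all genes did.

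Taking the 3 hairpins as repeats of the knockdown, no member passed at either day, and 0% of all genes did. At day 2 TNFSF10 stood at 1.64 log2 (SE 1.94), TNFRSF10B at 1.22 (SE 0.70), FAS at 0.48 and CFLAR at -0.54 (adjusted p = 1.00 each). At day 5 TNFSF10 stood at 2.31 (SE 1.94), TNFRSF10B at 0.93 (SE 0.70) and FAS at 0.42 (adjusted p = 0.913 each). In limma none of the 9 had an unadjusted p under 0.05 on either day, whereas 442 of all genes did at day 2 and 171 at day 5. The SE of TNFSF10 takes in the distance between hairpins: at day 5, #10 stood 4.63 log2 above scramble and #1 fell short of it (-0.71). Without #10 the TNFSF10 values were 0.73 at day 2 and 1.15 at day 5, and without #1 they were 2.08 and 3.81.

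Over time, TNFSF10 at day 5 stood 1.97 log2 above day 2 in #10, 3.09 above the day 2 array labelled shCDK2 #3 in #3, 0.67 below in #1 and 0.79 above in scramble. TNFRSF10B had 1.49 in #3, 0.13 in #1, -0.17 in #10 and 0.77 in scramble. On the probe set used, CFLAR had 1.65 in #10 and between -0.35 and -0.05 in the other 3 constructs. Other CFLAR probe sets rose in #3 as well. The dimmest of the 8 above the filter had 5.38 and 6.64 log2 in #3, and 6.52 and 7.04 in #10. In #3, 1 of those 8 was higher than scramble at day 2 and 7 were at day 5. On the probe set used, CASP8 had -0.71 in #10 against 0.96 in #3, 0.10 in #1 and 0.54 in scramble. Over the 3 hairpins the day 5 minus day 2 change of TNFSF10 was 1.46 (SE 1.37, adjusted p = 1.00). None of the 9 passed in this comparison, in the same comparison within scramble, or in the difference of the knockdown changes between days (TNFSF10 0.67, SE 2.74), and 0% of all genes did in each. None of the 9 had an unadjusted p under 0.05 in these comparisons, where 260, 188 and 164 of all genes did.

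Beyond the 9 genes, 41 other genes of the pathway were listed by role, of which 35 were measured and 29 were tested. In #10, where 2.01% of all genes were called, 1 of the 29 passed, and no other of the 29 passed in any of the 11 comparisons. This was TNFAIP3, which encodes A20, a ubiquitin-editing enzyme that limits TNF receptor and NF-kB signalling. It had 9.89 and 11.94 log2 in #10, 9.77 (day 2 array labelled shCDK2 #3) and 11.04 in #3, 8.43 and 9.25 in #1, and 8.62 and 8.66 in scramble. All 4 arrays of #10 and #3 lay above all 4 of #1 and scramble. It rose in #10 by 2.27 log2 (SE 0.41, adjusted p = 0.0456), had 1.76 in #3 (adjusted p = 0.264, or 1.91 with adjusted p = 0.117 without the day 2 array labelled shCDK2 #3), and in #10 did not pass with median centring (0.0724), with the mean of its probe sets (0.0530), without the scramble array of day 5 (1.60, adjusted p = 0.211) or without the day 5 array of #10 (1.61, adjusted p = 0.0742).

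Among 6 further death and decoy receptors tested, 5 stood above 0 in #10 (median 0.21, 0 called). TNFRSF10D, a TRAIL decoy receptor whose death domain is truncated, had 9.04 and 8.73 log2 in #10, 7.87 (day 2 array labelled shCDK2 #3) and 9.23 in #3, 7.60 and 7.35 in #1, and 7.01 and 7.27 in scramble. Its arrays fell in the same 3 against 5 split as those of TNFSF10, with changes of 1.75 in #10 (adjusted p = 0.0687) and 1.41 in #3 (adjusted p = 0.341). Its second probe set lay between 6.09 and 6.54 in all 8 arrays, and with the mean of both the changes were 0.89 in #10 and 0.70 in #3. Without the day 2 array labelled shCDK2 #3, the brighter probe set passed at 1.75 in #10 (adjusted p = 0.0127), where 7.47% of all genes did. In that fit it also passed at 2.14 in #3 (adjusted p = 0.0345), where 1.66% of all genes did and #3 was 1 array whose spread was taken from the other groups. TNFRSF21, encoding death receptor 6, had 1.05 in #10 (adjusted p = 0.0774) and TNFRSF25, encoding death receptor 3, had 0.38. The second TNFRSF21 probe set, also above the filter, had 6.94 and 7.07 log2 in #10, against 5.10 and 5.47 in scramble. TNFRSF10C, the other membrane decoy for TRAIL, stood at 0.04 in #10 and is named here after its value was seen.

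Of 10 adaptors and ubiquitin regulators tested, 5 stood above 0 in #10 on the probe sets used (median 0.30). Apart from TNFAIP3 the largest values on the probe sets used were 1.61 for the deubiquitinase gene CYLD (adjusted p = 0.0905), 1.24 for BIRC2, which encodes the ubiquitin ligase cIAP1 (adjusted p = 0.125), and 0.71 for TRAF1 (adjusted p = 0.184). The second TRAF1 probe set, also above the filter, differed more. It had 5.92 and 8.45 log2 in #10, against 4.79 and 5.15 in scramble. RBCK1, named here after its values were seen, stood below 0 on the probe set used. Its other probe sets, all above the filter, were higher in #10 than in scramble on both days. The second had 8.14 and 8.45 log2 in #10, against 7.54 and 7.12 in scramble. Of 8 caspase and mitochondrial genes tested, 2 stood above 0 (median -0.10, 0 called), with -0.46 for CYCS, which encodes cytochrome c, 0.39 for the caspase inhibitor gene XIAP and -0.34 for CASP6. All 3 other ligand genes tested stood below 0 in #10, at -0.28 for TNF, -0.20 for LTA and -0.26 for TNFSF12. TNF had 10.99 and 12.06 log2 in #10, 10.84 and 12.18 in #3, 11.33 and 11.96 in #1, and 11.74 and 11.86 in scramble, and its day 5 minus day 2 change over the hairpins was 1.02 (adjusted p = 1.00). The necroptosis genes RIPK3 and MLKL stood at -0.16 and 0.04 in #10. The genes FASLG, TNFSF15, TNFRSF11B, CASP10, APAF1 and ZBP1 lay below the filter, and the remaining 6 listed genes were not analysed here.

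**Figure D5:**
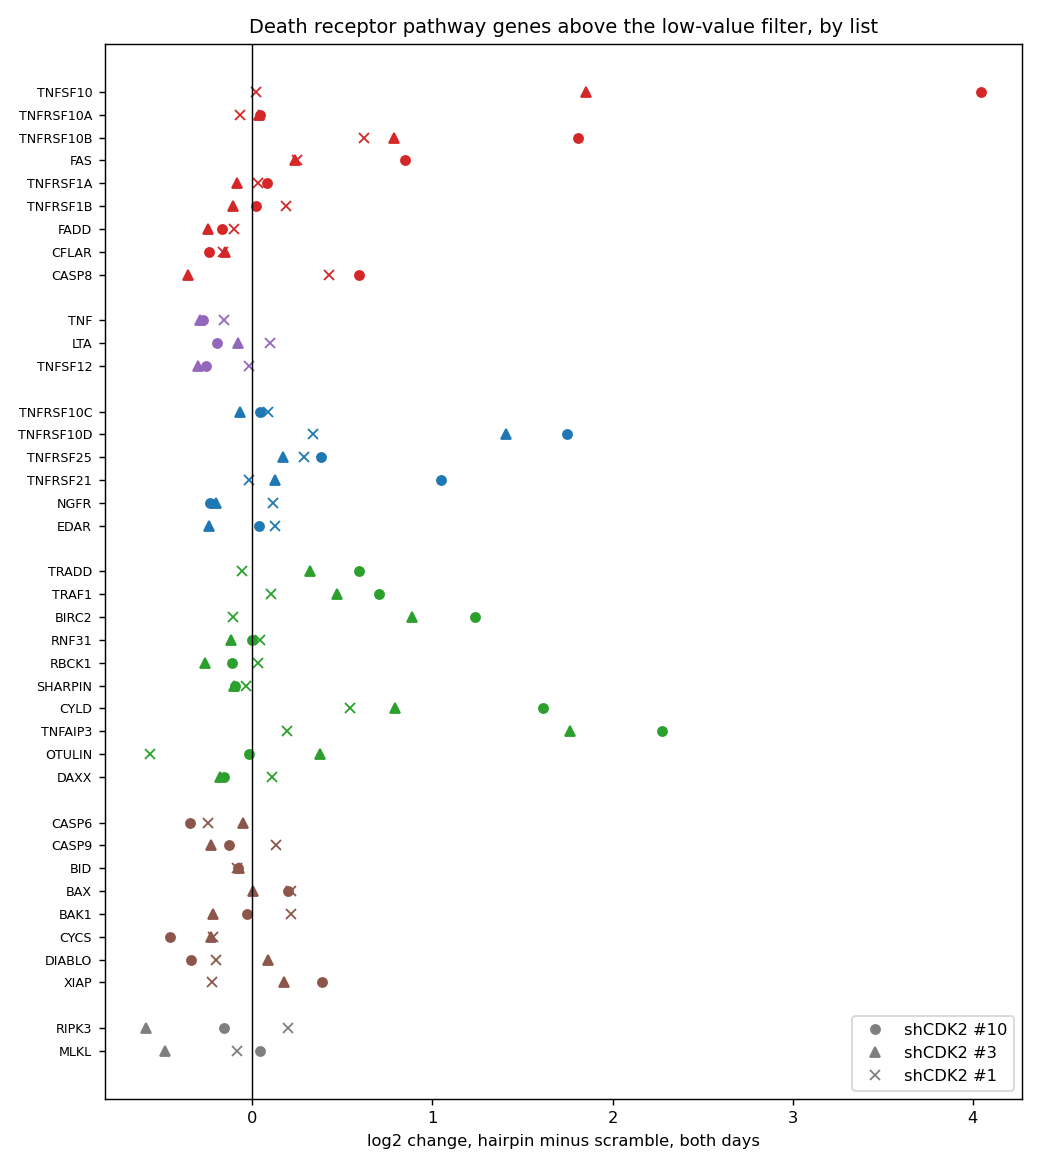
Fitted log2 change, hairpin minus scramble over both days, of the 38 genes above the filter (the 9 genes and 29 others) grouped by role, with circles for shCDK2 #10, triangles for #3 and crosses for #1. TNFSF10, TNFAIP3, TNFRSF10B and TNFRSF10D lie farthest to the right in #10, and the crosses of #1 lie between -0.57 and 0.62.

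Genes with a pattern like that of TNFSF10 were sought among 1262 tested genes whose SD over the 8 arrays was at least 0.5 log2. The 10 with the highest Pearson r over the 8 arrays were CYTIP (0.996), SHFL (0.994), SERPINA1 (0.992), FCER1G (0.991), DDX60L (0.990), RNF213 (0.990), RGS16 (0.989), AKAP13 (0.989), DTX3L (0.985) and IL1RAP (0.985). In each, both #10 arrays and the day 5 array of #3 stood above the other 5, so r mostly describes this split, and all arrays share the same series and processing. CYTIP, which encodes a cytohesin-interacting protein of leukocytes, had 9.60 and 10.79 log2 in #10, 7.43 (day 2 array labelled shCDK2 #3) and 9.79 in #3, 7.58 and 7.13 in #1, and 6.74 and 7.35 in scramble. SHFL, an inhibitor of viral frameshifting, had 10.22 and 11.43 in #10, 8.07 and 10.30 in #3, 8.05 and 7.52 in #1, and 7.05 and 7.88 in scramble. Among the 9 genes, r with TNFSF10 was 0.88 for TNFRSF10B, 0.80 for FAS, 0.47 for TNFRSF10A, 0.33 for CASP8 and TNFRSF1A, 0.02 for CFLAR, -0.07 for TNFRSF1B and -0.34 for FADD.

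The response-element letters found before TNFSF10 were in windows of 4 of these 10 genes and of 4 of the 7 members with a window. With the further A they were in 3 of the 10, without AKAP13, and in 3 of the 7. Over all 27305 genes with a window, 9.86% held the letters and 4.38% with the further A. These genes were chosen with their values in view, so no enrichment was tested. The matches are printed with 10 bases on each side, in the direction of transcription, so that the matches can be set beside those of TNFSF10.
CASP8, chr2:201233451-201233479, plus strand: agtttttggtTTCTGTTTCaccttgtgtc
CFLAR, chr2:201132660-201132688, plus strand: ctacttcaaaTTCTATTTCtgtcttttat
TNFRSF1B, chr1:12166972-12167000, plus strand: ggcgcgggctTTCGCTTTCagtcgagggc
SHFL, chr19:10086264-10086292, plus strand: cccctgaatcGAAAGCGAAacaggggccg
DDX60L, chr4:168480554-168480582, minus strand: gaaaactgcgGAAATCGAAaaggcctcgc
DDX60L, chr4:168480524-168480552, minus strand: gtggagaaaaGAAACCGAAactaactccc
AKAP13, chr15:85619762-85619790, plus strand: cggtgtttgcTTCTCTTTCagtcaagatc
DTX3L, chr3:122564322-122564350, plus strand: ccagggaagcGAAACTGAAactttgcgcc
The coordinates are GRCh38.p14 from RefSeq, and the capitals mark the match. TNFRSF1B, CFLAR and CASP8 hold the letters, while their r with TNFSF10 over the arrays was 0.33 or less. Letters of the gamma-interferon activated site (TTCNNNGAA, in 7.66% of all windows) were in 1 of the 14 windows of members, for CASP8.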

How the data were processed

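RNA of the 8 NB4 samples had been hybridised to Affymetrix arrays, from 6 micrograms of total RNA each per the labels' protocols. The authors deposited 1 processed log2 value per probe set and array, and that the scale is log2 was inferred from the range. Partek is named in the submitters' processing notes; no version, summarization or normalization method was found (not given in the sources used here). Normalization and summarization can shift dim probe sets most, and no background measure was used here. Array medians were 6.30 to 6.43 and SDs 2.14 to 2.26, no 2 arrays were identical, and so few arrays limit the precision.

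Of 49395 probe sets, 44994 had 1 gene in the platform annotation, 1832 had several and 2569 had none. Symbols were updated through a RefSeq gene table, which held 44967 of them. The probe set of highest mean stood for each gene, and the test took genes whose mean exceeded 5.83, the 40th percentile over probe sets. Models were fitted in R 4.3.3 by limma 3.58.1, with data.table (1.17.8) for tables, empirical Bayes moderation and two-sided p-values with Benjamini-Hochberg adjustment over all 12845 genes. The model of group-by-day means left 4 residual degrees of freedom (prior 3.13), and the additive model of construct plus day left 3 (prior 4.54). The procedure was tested on simulated data. Figures and tables used Python 3.11.15, pandas 2.3.3 and matplotlib 3.10.9.

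The text names CDK2, all 9 genes, from each pathway list the genes called and otherwise up to 3 with the largest change, and the 10 genes most like TNFSF10. The members and lists were chosen with earlier results of these data known. Alternatives were quantile normalization, median centring, no filter, averaging all probe sets of a gene, a mean-variance trend, leaving out each hairpin or a doubted array, and the hairpin number as a block. Leaving out the day 5 array of #10 was added after the data were seen. Promoter windows came from RefSeq on GRCh38.p14, and the letters searched in them were chosen after the data were seen.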

Additional observations from a re-analysis of the deposited data

Results flagged for a closer look

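TNFRSF10A differed from scramble in opposite directions on the 2 days, in all 3 hairpins on each day. The mean difference was -0.16 log2 at day 2, where the values were -0.03 in #10, -0.30 in the day 2 array labelled shCDK2 #3 and -0.15 in #1. It was 0.17 at day 5, where the values were 0.11 in #10, 0.38 in #3 and 0.02 in #1. The limma test of the difference between days gave 0.33 (SE 0.32, adjusted p = 1.00) and did not pass. Each day's value rests on 1 scramble array.

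CASP8, on the probe set used, stood above scramble on both days in #1 and below it on both days with #3. Its second probe set stood above scramble on both days with #3 too, by 0.06 and 0.28 log2. The mean difference was 0.43 log2 in #1 (0.65 at day 2 and 0.21 at day 5) and -0.36 in #3 (-0.57 in the day 2 array labelled shCDK2 #3 and -0.15 at day 5). The direct comparison of #3 with #1 gave -0.79 (SE 0.36, adjusted p = 0.434) and did not pass. Without the day 2 array labelled shCDK2 #3 it was -0.29, and the fitted value of #3 against scramble was 0.13. Both values take in a day term from the other constructs, while the day 5 array of #3 itself stood at -0.15 from scramble of its day.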

How the results depend on the processing

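Of 977 recomputed values of the 9 genes, 917 kept their side of the threshold (uncalled ones within 1 SD), 12 newly passed, 4 no longer passed, 44 moved without a call, and none reversed a call. Of 5961 values of the other named genes and markers, 58 newly passed, 32 no longer passed and none reversed a call. The number of members called in #10 against scramble was 1. It became 3 with quantile normalization (TNFRSF10B adjusted p = 0.0475) and with a mean-variance trend (0.0499), FAS being the third in both by way of its #10 arrays, and 0 with median centring (TNFSF10 0.0729) and with the mean of all probe sets (TNFSF10 0.0530), where FAS and CASP8 fell below the filter. It stayed at 1 with no filter. Leaving out hairpins or a doubted array (the day 5 array of #10 was added after the data were seen) gave 0 to 3 there, and 0 to 1 for #10 against #1, whose count was otherwise 0. The remaining counts stayed at 0 in every alternative run. The causes were not tested. Over all genes the 258 calls in #10 became 367 with quantile normalization, 82 with median centring (80 of them higher, against 217 of 258), 960 without hairpin #3, 182 without the day 5 array of #10, and 0 without the scramble array of day 5. The CFLAR change in #10 was -0.24, and 0.35 with the mean of its probe sets, neither called.

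With the hairpin number as a replicate block, 0 of the 9 genes passed for day 5 against day 2 in shCDK2 (TNFSF10 1.46, SE 0.67, adjusted p = 0.999) or for the difference between days, as without it. Deviations of day 2 and day 5 arrays from their group means correlated at 0.72 for #1, -0.23 for #3 and 0.43 for #10. The numbers were therefore not taken as pairs in the fits with the 3 hairpins as repeats of the knockdown. The fits of construct plus day do take the 2 days of a hairpin as its repeats. For them, the low agreement between the days of #3 is a limit. Of the 3, hairpin #1 correlated best with its own number, #3 and #10 did not.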

Other observations

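TNFSF15, which encodes the ligand TL1A of death receptor 3, lay below the filter by its mean and was not tested. Its log2 signal was 7.49 in #10 at day 5 and between 4.39 and 4.78 in the other 7 arrays. Its second probe set lay between 4.19 and 5.15 in all 8 arrays. TNFSF15 was singled out after its values were seen.

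The 4 TRAIL receptor genes are neighbours in RefSeq in the order TNFRSF10B, TNFRSF10C, TNFRSF10D and TNFRSF10A. Against scramble over both days in #10, their changes in that order were 1.81, 0.04, 1.75 and 0.05 log2, none of them past the threshold. In #3 they were 0.79, -0.07, 1.41 and 0.04, and in #1 they were 0.62, 0.09, 0.34 and -0.07. CFLAR, CASP10 and CASP8 are also neighbours in that order. CASP10, under the filter, had 5.67 and 6.28 log2 in #10, 5.64 (day 2 array labelled shCDK2 #3) and 5.69 in #3, 5.78 and 5.93 in #1, and 5.67 and 5.72 in scramble.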
